A study of Arabidopsis thaliana with 12 samples.

Results

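The TRICHOME BIREFRINGENCE-LIKE (TBL) genes of Arabidopsis thaliana, with their founder TRICHOME BIREFRINGENCE (TBR), are described here on each of 12 arrays. The members were all loci whose symbol or synonym is TBL followed by a number, plus TBR. The gene table held 46 such loci, and 45 of them had a probe on the array. TBL20 (AT3G02440) had no probe matched to it. Of the 45 loci, 43 passed the detection filter and were tested among 20487 genes. TBL42 and TBL43 were well above background on 1 of 12 arrays each, and were not tested. The rule uses names alone and no measured value.

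Proteins of this family carry a plant-specific domain, and many sit in the Golgi. Most members studied so far attach acetyl groups to wall polysaccharides such as xylan, xyloglucan, mannan and pectin. Acetyl groups set how these polymers bind cellulose, lignin and each other, and a lack of them on xylan collapses the vessels of the xylem. The RWA proteins of the Golgi membrane are thought to pass acetyl groups to the TBL enzymes. Many members have no known substrate.

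The samples were whole seedlings grown for 4 days under continuous blue light (intensity 5 µmol m-2 s-1), after 3 days in the cold and dark. There were 4 groups of 3 arrays: cry1cry2 seedlings on 15 µM 3-bromo-7-nitroindazole (3B7N), cry1cry2 seedlings on the solvent dimethyl sulfoxide (DMSO), wild-type Col-0 seedlings on 15 µM 3B7N, and wild-type Col-0 seedlings on DMSO. The double mutant cry1cry2 lacks the blue light receptors CRY1 and CRY2, which normally restrain growth of the hypocotyl, and 3B7N inhibits mammalian nitric oxide synthases. The series' title concerns hypocotyl growth induced by chemicals, and its text speaks of 3 chemicals, of which 1 is among these samples. Nothing in the labels ties the replicates to separate plates or batches of seed, so p-values measure the spread between these samples, which may be technical. In whole seedlings, fewer cells of a type and less RNA per cell cannot be told apart.

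Values are log2 processed signals relative to the 75th percentile of the same array, so a negative value only means a signal below that percentile, and levels are compared between samples, never between genes. The 75th percentile lay between 883 and 6794 intensity units, 64.4% to 81.2% of the probes of an array were well above background, and the correlation across genes between replicate arrays was 0.979 to 0.993. CRY1 lay between -9.85 and -7.73 on the cry1cry2 arrays and between 3.25 and 3.86 on the wild-type arrays. CRY2 lay between -8.94 and -8.59 on the cry1cry2 arrays and between 1.85 and 2.48 on the wild-type arrays, so both genes matched the labels. One array stood apart in its xylem markers. On replicate 2 of cry1cry2 on 3B7N, the summed signal of 9 such markers was 19.7 times the 75th percentile, against 5.81 and 6.61 on replicates 1 and 3, and calls of members that change without this array are given with and without it.

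A gene was called where the adjusted p of the limma fit over all 12 arrays (Benjamini-Hochberg over 20487 genes) was under 0.05 and the log2 difference was at least 1 in size. Of the 43 members, 17 were called in at least 1 of 5 contrasts and 26 in none. On 3B7N against DMSO in cry1cry2, TBL1, TBL4 and TBL15 were higher and TBL33, TBL40 and TBL45 lower, which is 6.98% of the members in each direction, beside 2.1% of all genes called higher and 1.63% called lower. TBL1 and TBL4 passed the detection filter only through cry1cry2 on 3B7N, the group where they are high, and with only the 38 members whose probes were well above background on all 12 arrays, 0 were called higher, so nothing is read from that share. On 3B7N against DMSO in wild type, TBL4, TBL37 and TBL44 were higher (6.98%, beside 5.89% of all genes) and TBL15, TBL26, TBL27, TBL28 and TBL45 lower (11.6%, beside 9.09%). The median difference of the members was -0.02 in cry1cry2 and -0.07 in wild type, beside 0.04 and -0.06 over all genes.

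Between genotypes on DMSO, TBL22, TBL31, TBL34 and TBL38 were higher in cry1cry2 (9.3%, beside 7.62% of all genes) and TBL15, TBL21, TBL26, TBL28 and TBL45 lower (11.6%, beside 11.4%). On 3B7N, TBL41 alone was higher in cry1cry2 (2.33%, beside 4.01%) and 0 members were lower, beside 3.27% of all genes, while in the limma fit 5 members had an adjusted p, and 7 an unadjusted p, under 0.05 in that direction without reaching the size for a call. The members' median difference between genotypes was 0.17 on 3B7N and 0.19 on DMSO, beside 0.05 and -0.005 over all genes. The interaction (the change in cry1cry2 with 3B7N minus that in wild type) was called for 7 members. It was above 0 for TBL4, TBL15, TBL26, TBL28 and TBL41 (11.6%, beside 12.7% of all genes) and below 0 for TBL31 and TBL37 (4.65%, beside 5.91%). Apart from 3B7N in cry1cry2, where each direction rests on 3 members, and the genotypes on 3B7N, the members' shares lay within 3 percentage points of those of all genes.

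**Figure D1:**
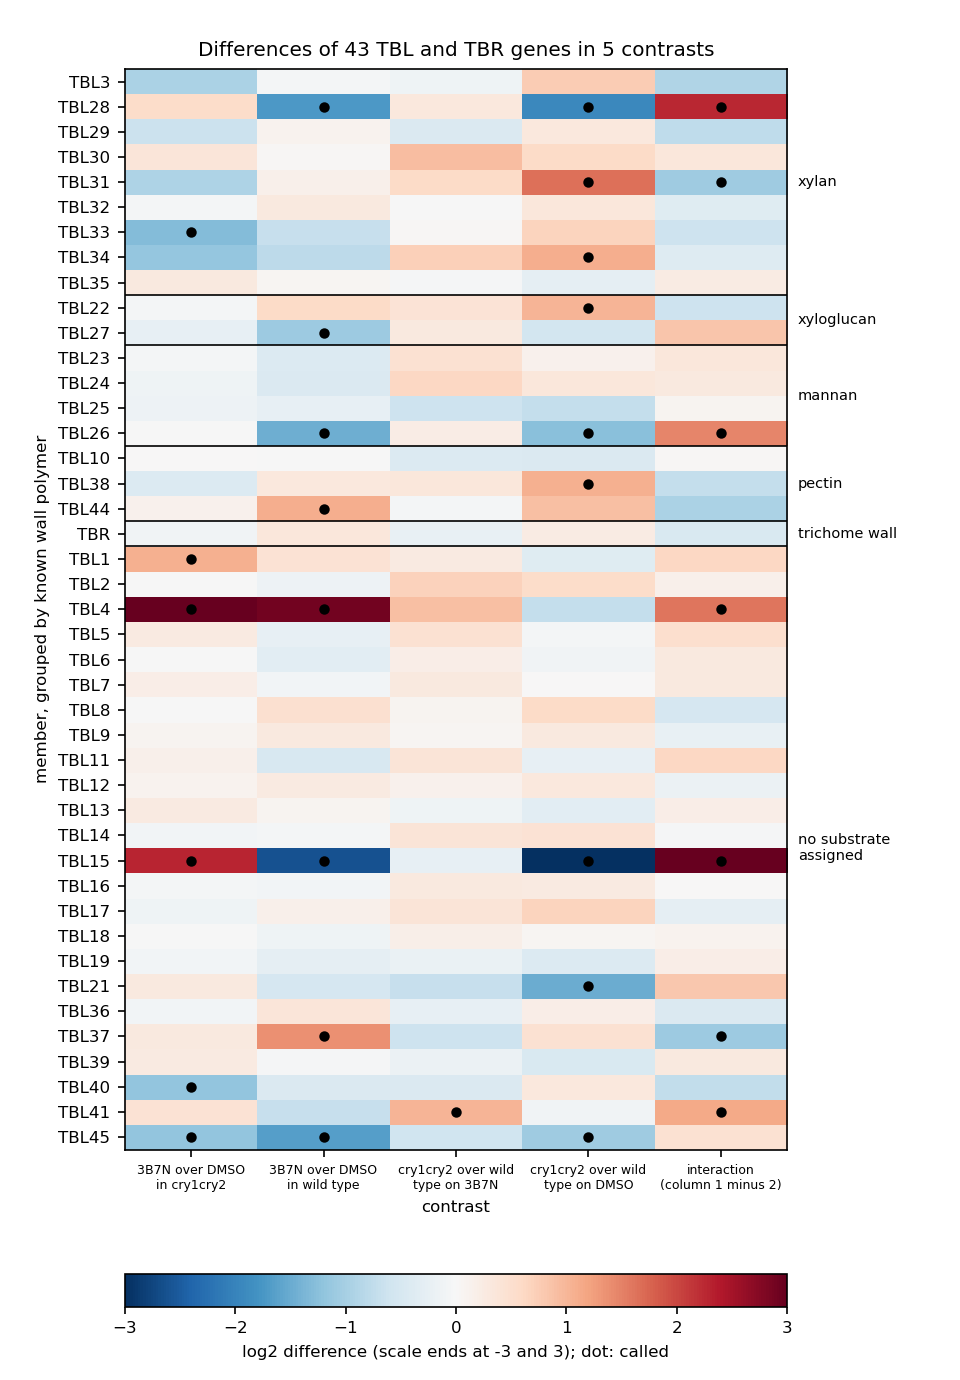
Log2 differences of the 43 tested members (rows, grouped by the wall polymer they are known to act on) in 5 contrasts (columns). Colour runs from -3 to 3, values beyond that take the end colour, and a dot marks a call. TBL4 and TBL15 reach the deepest colours, TBL28 and TBL26 carry the same signs in each of their called contrasts, and the column of genotypes on 3B7N holds 1 dot.

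Xylan is the main hemicellulose of the secondary wall, and 9 members have been linked to its acetylation. TBL29, also known as ESKIMO1, puts acetyl groups on xylan, and its loss gives collapsed xylem and tolerance to frost. TBL3, TBL28, TBL30, TBL31, TBL32, TBL33, TBL34 and TBL35 add acetyl groups to the same backbone, in part at other positions of the xylose residue. On DMSO, TBL31 and TBL34 were called higher in cry1cry2 and TBL28 lower. With 3B7N, TBL33 was called lower in cry1cry2 and TBL28 lower in wild type.

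TBL28 (AT2G40150) had -2.32, -2.27 and -2.74 in cry1cry2 on 3B7N, against -2.68, -3.61 and -2.67 in cry1cry2 on DMSO. In wild type it had -2.83, -3.05 and -2.42 on 3B7N, against -0.85, -1.13 and -1.15 on DMSO. The 3 wild-type arrays on DMSO were higher than all other arrays, and the other 3 groups overlapped. With 3B7N, TBL28 fell by 1.72 ± 0.26 (SE, limma, adjusted p = 0.00042) in wild type, which is 3.3-fold, while the difference in cry1cry2 was 0.55 ± 0.26 (adjusted p = 0.243). It was lower by 3.84-fold in cry1cry2 than in wild type on DMSO (log2 difference -1.94, adjusted p = 0.000117), and on 3B7N the genotypes differed by 0.33 (adjusted p = 0.366). The interaction was 2.27 ± 0.37 (adjusted p = 0.00112). All 3 calls of TBL28 held under every alternative setting of the fit.

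TBL30 (AT2G40160) is the next coding gene to TBL28 on the chromosome and was not called in any contrast. It had -3.17, -2.65 and -2.25 in cry1cry2 on 3B7N, against -3.11, -3.47 and -2.62 in cry1cry2 on DMSO. The wild-type values were -2.96, -4.14 and -3.73 on 3B7N, against -3.95, -3.84 and -3.12 on DMSO. With 3B7N in wild type it differed by 0.03, with a 95% interval of -0.74 to 0.79, so its change did not extend to the size seen for TBL28. The difference between the changes of the neighbours was not tested. A further kept probe of TBL30 gave 1.29 between genotypes on 3B7N, where the probe shown gave 0.92. The absence of a call there refers to the probe shown.

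TBL33 (AT2G40320) had -2.74, -1.73 and -2.74 in cry1cry2 on 3B7N, against -1.10, -1.23 and -0.97 in cry1cry2 on DMSO. Wild-type arrays gave -2.27, -2.52 and -2.56 on 3B7N, against -1.65, -1.87 and -1.77 on DMSO. Within both genotypes the 3B7N arrays were lower than the DMSO arrays without overlap. TBL33 fell by 1.31 ± 0.24 in cry1cry2 (limma, adjusted p = 0.00699), and in wild type the difference was -0.69 ± 0.24 (adjusted p = 0.0371), below the size for a call. The interaction was -0.62 (adjusted p = 0.182), and without replicate 2 of cry1cry2 on 3B7N it was -0.96 (adjusted p = 0.00697), under the size for a call. With the slide of the arrays as a block, the difference in cry1cry2 was -1.43 and its adjusted p 0.0926, which ends the call.

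TBL31 (AT1G73140) had -6.01, -5.28 and -5.99 in cry1cry2 on 3B7N, against -4.69, -4.95 and -4.87 in cry1cry2 on DMSO. In wild type it had -6.15, -6.59 and -6.27 on 3B7N, with the middle array not well above background, against -6.24, -6.70 and -6.53 on DMSO. The mutant arrays on DMSO were the highest. On DMSO, TBL31 was 3.14-fold higher in cry1cry2 than in wild type (log2 difference 1.65 ± 0.21, limma, adjusted p = 8.65e-05). Its interaction was -1.07 ± 0.30 (adjusted p = 0.0196), since it differed by -0.92 with 3B7N in cry1cry2 and by 0.15 in wild type. The interaction was not called with the slide as a block (-1.22, adjusted p = 0.0931), and it missed the call without wild type on DMSO replicate 2, wild type on 3B7N replicate 1, cry1cry2 on DMSO replicate 1, or cry1cry2 on 3B7N replicate 1 or 3 (-0.94 to -0.997). With the normexp background correction neither call of TBL31 held, at differences of 0.74 between genotypes on DMSO (adjusted p = 0.217) and -1.29 for the interaction (adjusted p = 0.174).

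TBL34 (AT2G38320) had -3.84, -2.22 and -3.60 in cry1cry2 on 3B7N, against -1.94, -2.37 and -1.84 in cry1cry2 on DMSO. Its wild-type values were -3.67, -4.32 and -3.78 on 3B7N, against -3.25, -3.24 and -2.94 on DMSO. On DMSO the genotypes did not overlap, and in cry1cry2 the 3B7N array of replicate 2 lay among the DMSO arrays. TBL34 on DMSO was 2.13-fold higher in cry1cry2 than in wild type (log2 difference 1.09 ± 0.35, limma, adjusted p = 0.0265). The call was lost with normexp (0.98, adjusted p = 0.0225, under the size for a call) and with the slide as a block (1.37, adjusted p = 0.187). Leaving out 1 array, it was lost without wild type on DMSO replicate 1 or 2 (1.04 each, adjusted p = 0.07 and 0.0729) and without cry1cry2 on DMSO replicate 1 or 3 (1.03 and 0.99, adjusted p = 0.0722 and 0.0815).

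TBL3 (AT5G01360) had -2.37, -1.48 and -2.38 in cry1cry2 on 3B7N, against -1.07, -0.91 and -1.38 in cry1cry2 on DMSO. Wild type had -2.14, -1.85 and -1.87 on 3B7N, against -1.84, -1.86 and -1.96 on DMSO. TBL29 (AT3G55990) had 0.59, 0.96 and 0.59 in cry1cry2 on 3B7N, against 1.23, 1.45 and 1.37 in cry1cry2 on DMSO, and its wild-type values were 1.28, 1.03 and 1.13 on 3B7N, against 1.16, 0.93 and 1.02 on DMSO. For both genes the mutant arrays on DMSO lay above those on 3B7N. The difference with 3B7N in cry1cry2 was -0.96 ± 0.23 for TBL3 (limma, adjusted p = 0.0255) and -0.64 ± 0.14 for TBL29 (adjusted p = 0.0184), each under the size for a call. The interaction of TBL3 was -0.89 (adjusted p = 0.0552) and was called without replicate 2 of cry1cry2 on 3B7N (-1.19, adjusted p = 0.00384). That of TBL29 was -0.75 (adjusted p = 0.0156), and -0.87 without the same array (adjusted p = 0.00866). Between genotypes on 3B7N, TBL29 differed by -0.44 (adjusted p = 0.0403). These differences of TBL29 were under the size for a call.

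TBL32 (AT3G11030) had 0.18, 0.11 and 0.15 in cry1cry2 on 3B7N, against 0.12, 0.21 and 0.32 in cry1cry2 on DMSO. Wild-type arrays gave 0.43, -0.04 and 0.09 on 3B7N, against -0.05, -0.30 and -0.04 on DMSO. TBL35 (AT5G01620) had 1.64, 1.49 and 1.5004 in cry1cry2 on 3B7N, against 1.22, 1.32 and 1.18 in cry1cry2 on DMSO, and its wild-type values were 1.65, 1.47 and 1.61 on 3B7N, against 1.54, 1.63 and 1.38 on DMSO. Neither gene moved by more than 0.36 in any contrast.

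Replicate 2 of cry1cry2 on 3B7N held the highest value of its group for TBL3, TBL29, TBL31, TBL33 and TBL34. Without this array, 6 members in place of 3 were called lower with 3B7N in cry1cry2. Leaving out the highest value of a group lowers its mean, and calls over all genes without this array were not counted. Nothing is therefore read from that number. Without replicate 2, TBL33 differed by -1.64 (limma, adjusted p = 0.000115), and the added members TBL3, TBL31 and TBL34 differed by -1.26, -1.16 and -1.67, with adjusted p-values of 0.00112, 0.00356 and 0.00157. With all arrays, TBL3, TBL31 and TBL34 differed by -0.96, -0.92 and -1.17, with adjusted p-values of 0.0255, 0.0221 and 0.0698.

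The 9 xylem markers include the secondary wall cellulose synthases CESA4, CESA7 and CESA8. Their sum was 5.81, 19.7 and 6.61 in cry1cry2 on 3B7N, against 22.7, 20.0 and 21.0 in cry1cry2 on DMSO. Wild type had 9.60, 9.78 and 8.95 on 3B7N, against 7.77, 6.61 and 7.19 on DMSO. All 9 markers were called higher in cry1cry2 on DMSO, and 5 of 9 were called lower with 3B7N in cry1cry2 (9 of 9 without replicate 2). In wild type with 3B7N, 1 marker (LAC17) was called higher. With 3B7N in wild type the sum was higher. In that contrast the 9 xylan members ranged from -1.72 to 0.29, with a median of 0.03. Among them, TBL33 differed by -0.69 and TBL34 by -0.78 (limma, adjusted p = 0.0371 and 0.1). The part of xylem content in the values of the xylan members was not tested.

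**Figure D2:**
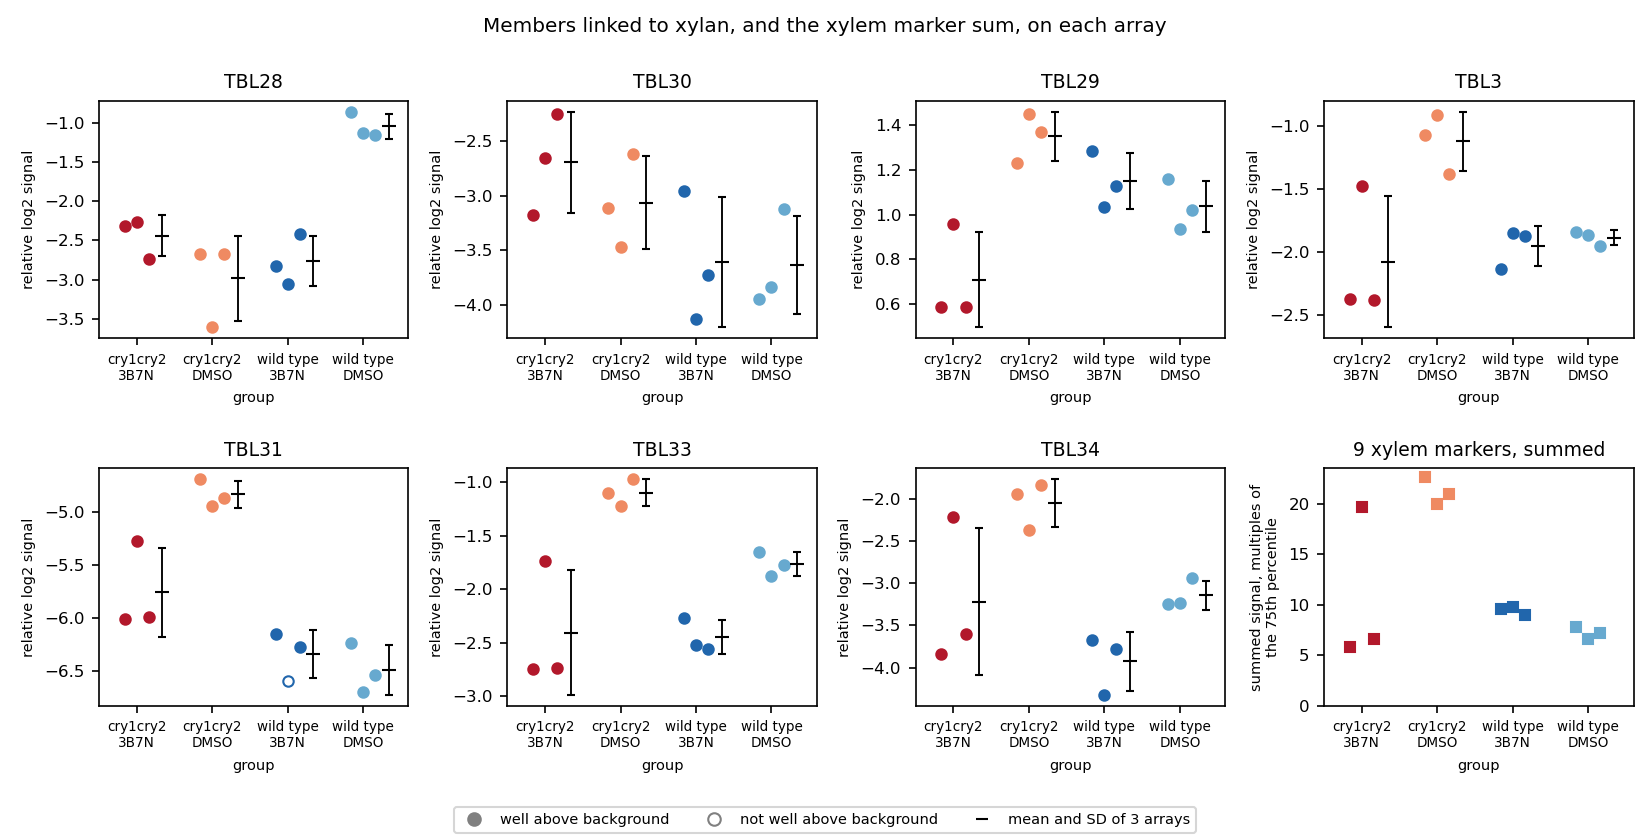
Relative log2 signal on each array (vertical axes) of 7 xylan members in the 4 groups, with the mean and SD of 3 arrays beside the points, and, in the last panel, the summed signal of 9 xylem markers on a linear axis from 0. Replicate 2, the middle point of cry1cry2 on 3B7N, lies above the other points of its group for TBL29, TBL3, TBL31, TBL33, TBL34 and the marker sum, and for TBL28 the wild-type arrays on DMSO stand above all others.

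The genes that build the xylan backbone and its side chains were compared beside these members. With 3B7N in cry1cry2, 6 of 18 xylan synthesis genes were called lower (8 without replicate 2) and 0 higher. They were IRX9, IRX15, IRX8, GUX1, GUX2 and GXM3. GUX2, which adds glucuronic acid to xylan, differed by -1.35 ± 0.23 (limma, adjusted p = 0.00558). On DMSO, 7 of 18 were called higher in cry1cry2 and 0 lower, with IRX15 at 2.47 ± 0.43 (adjusted p = 0.000782) and IRX8 at 1.76 ± 0.26 (adjusted p = 0.000257). In wild type with 3B7N, GXM2 alone was called, and was lower by 1.03 (adjusted p = 0.00372). The median difference of the 18 genes was -0.44 with 3B7N in cry1cry2, 0.12 with 3B7N in wild type and 0.57 between genotypes on DMSO, and that of the 9 xylan members was -0.64, 0.03 and 0.57. RWA1, RWA2, RWA3 and RWA4, the supposed acetyl donors, gave 0 calls in any contrast of the limma fit. At an unadjusted p under 0.05, 2 of them were lower with 3B7N in cry1cry2, 1 higher with 3B7N in wild type, 3 higher in cry1cry2 on DMSO, and 3 below 0 in the interaction. RWA1 differed by 0.55 with 3B7N in wild type (adjusted p = 0.00823), below the size for a call.

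Xyloglucan, the main hemicellulose of growing primary walls, is acetylated on its side chains by TBL27 (also AXY4) and, in seeds, by TBL22 (AXY4L). TBL27 (AT1G70230) had 0.03, 0.25 and 0.08 in cry1cry2 on 3B7N, against 0.42, 0.10 and 0.62 in cry1cry2 on DMSO. In wild type it had 0.01, -0.59 and 0.11 on 3B7N, against 0.89, 0.77 and 1.11 on DMSO. The wild-type arrays on DMSO were the highest of all. With 3B7N, TBL27 fell by 1.09 ± 0.20 (limma, adjusted p = 0.0015) in wild type, while in cry1cry2 it differed by -0.26 (adjusted p = 0.502), and the interaction was 0.83 (adjusted p = 0.0454), under the size for a call. The call in wild type is close to the size threshold: its difference was -0.95 with scaling to the median, -0.96 with array weights, -0.92 with the slide as a block, -0.87 without wild type on 3B7N replicate 2 and -0.99 without wild type on DMSO replicate 3, each with an adjusted p under 0.05.

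TBL22 (AT3G28150) had -3.64, -3.51 and -3.02 in cry1cry2 on 3B7N, against -3.55, -3.19 and -3.26 in cry1cry2 on DMSO. The wild-type values were -3.65, -3.81 and -3.95 on 3B7N, against -4.40, -4.57 and -4.14 on DMSO. Here the wild-type arrays on DMSO were the lowest. On DMSO it was 2.04-fold higher in cry1cry2 than in wild type (log2 difference 1.03 ± 0.19, limma, adjusted p = 0.000966). The call was lost with normexp (0.67, adjusted p = 0.149) and at 0.93 to 0.99 without 1 of 3 arrays (wild type on DMSO replicate 2, and cry1cry2 on DMSO replicates 2 and 3).

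Of 14 xyloglucan synthesis genes, CSLC4 and XUT1 were called. CSLC4, the glucan backbone synthase, was higher by 1.04 ± 0.19 with 3B7N in wild type (limma, adjusted p = 0.00163) and by 1.19 in cry1cry2 against wild type on DMSO (adjusted p = 0.000477). XUT1, which adds galacturonic acid to xyloglucan of root hairs, fell by 1.64 ± 0.27 with 3B7N in wild type (adjusted p = 0.000735) and was lower by 2.62 in cry1cry2 on DMSO (adjusted p = 1.69e-05). Both contrasts use the same wild-type arrays on DMSO. Of 6 root hair markers, COBL9, EXPA7 and PRP3 were called lower in cry1cry2 on DMSO and 0 were called with 3B7N in wild type, where 2 had an unadjusted limma p under 0.05. Their part in the value of XUT1 was not tested.

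Mannan is acetylated by TBL23, TBL24, TBL25 and TBL26, also known as MOAT1 to MOAT4. TBL26 (AT4G01080) had -4.26, -4.27 and -4.92 in cry1cry2 on 3B7N, against -4.26, -4.75 and -4.43 in cry1cry2 on DMSO. Wild-type arrays gave -4.74, -4.82 and -4.55 on 3B7N, against -3.03, -3.35 and -3.31 on DMSO. As with TBL28, the wild-type arrays on DMSO stood above all others and the other 3 groups overlapped. With 3B7N, TBL26 fell by 1.47 ± 0.20 in wild type (limma, adjusted p = 0.00021), which is 2.78-fold, while in cry1cry2 the 95% interval of the difference ran from -0.44 to 0.43. It was lower by 1.25 in cry1cry2 than in wild type on DMSO (adjusted p = 0.000412), and the interaction was 1.47 ± 0.28 (adjusted p = 0.0029).

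With normexp none of the 3 calls of TBL26 held, at differences of -0.72 in wild type with 3B7N, -0.61 between genotypes on DMSO and 0.26 for the interaction. With the slide as a block the interaction was 1.46 at an adjusted p of 0.0518. The other mannan members were not called. TBL25 (AT1G01430) had 1.995, 2.09 and 1.70 in cry1cry2 on 3B7N, against 2.08, 2.27 and 1.90 in cry1cry2 on DMSO. Wild type had 2.35, 2.65 and 2.64 on 3B7N, against 3.07, 2.67 and 2.64 on DMSO. It differed by -0.71 between genotypes on DMSO (adjusted p = 0.00547) and by -0.62 on 3B7N (adjusted p = 0.0223). TBL23 (AT4G11090) had -0.14, -0.04 and -0.45 in cry1cry2 on 3B7N, against -0.14, -0.19 and -0.09 in cry1cry2 on DMSO. Its wild-type arrays gave -0.68, -0.67 and -0.66 on 3B7N, against -0.23, -0.29 and -0.27 on DMSO. TBL24 (AT4G23790) had -0.47, -0.18 and -0.30 in cry1cry2 on 3B7N, against -0.19, -0.29 and -0.06 in cry1cry2 on DMSO. Its wild-type arrays gave -1.22, -0.95 and -0.63 on 3B7N, against -0.68, -0.47 and -0.39 on DMSO. Their differences ranged between -0.42 and 0.62 over the 5 contrasts. Between genotypes on 3B7N, TBL23 was higher in cry1cry2 by 0.46 and TBL24 by 0.62 (limma, adjusted p = 0.0214 and 0.0193). Without replicate 2 of cry1cry2 on 3B7N, these adjusted p-values were 0.0804 and 0.0671. With 3B7N in wild type, TBL23 differed by -0.41 (adjusted p = 0.0218).

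Of 10 mannan synthesis genes tested, CSLA15, of the family of mannan backbone synthases, was called in 4 contrasts. It was higher by 1.09 ± 0.24 with 3B7N in cry1cry2 (limma, adjusted p = 0.017) and lower by 1.90 in wild type (log2 difference -1.90, adjusted p = 0.000126). On DMSO it differed by -3.21 between cry1cry2 and wild type (adjusted p = 1.34e-06), and its interaction was 3.00 ± 0.33 (adjusted p = 0.000135). CSLA10 was called higher in cry1cry2 on DMSO, by at least 1.07-fold against wild-type arrays that were not well above background.

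Pectin is linked to 3 members. TBL44, also known as PMR5, alters pectin and powdery mildew resistance, and TBL10 has been linked to acetyl groups on rhamnogalacturonan. TBL38 has been linked to homogalacturonan in seed coat mucilage, and it is not taken here to add acetyl groups. TBL44 (AT5G58600) had 1.10, 0.96 and 0.66 in cry1cry2 on 3B7N, against 0.81, 0.85 and 0.67 in cry1cry2 on DMSO. In wild type it had 1.13, 0.82 and 0.94 on 3B7N, against -0.09, 0.09 and -0.37 on DMSO. The wild-type arrays on DMSO were lower than the 9 others, which overlapped. With 3B7N it was 2.12-fold higher in wild type (log2 difference 1.09 ± 0.16, limma, adjusted p = 0.000384) and differed by 0.13 in cry1cry2 (adjusted p = 0.701). The difference between genotypes on DMSO was 0.90 (adjusted p = 0.000906) and the interaction -0.96 (adjusted p = 0.00906), both under the size for a call. The call in wild type missed that size with array weights (0.97) and without wild type on DMSO replicate 3 (0.96).

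TBL38 (AT1G29050) had 0.68, 0.59 and 1.08 in cry1cry2 on 3B7N, against 1.14, 1.28 and 1.18 in cry1cry2 on DMSO. The wild-type values were 0.70, 0.22 and 0.42 on 3B7N, against -0.02, 0.19 and 0.25 on DMSO. The mutant arrays on DMSO were the highest of all. On DMSO it was higher in cry1cry2 by 1.06 ± 0.16 (limma, adjusted p = 0.000364), and by 0.99 with array weights and 0.98 without wild type on DMSO replicate 1, which miss the size for a call. TBL10 (AT3G06080) had 1.76, 1.64 and 1.97 in cry1cry2 on 3B7N, against 1.59, 1.997 and 1.76 in cry1cry2 on DMSO. The wild-type values were 2.24, 2.18 and 2.15 on 3B7N, against 2.40, 2.07 and 2.15 on DMSO, all above the cry1cry2 arrays. Its difference between genotypes was -0.40 on 3B7N (adjusted p = 0.0645) and -0.42 on DMSO (adjusted p = 0.035), and with 3B7N it moved by 0.02 or less.

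Of 5 enzymes tested that remove acetyl groups from pectin, 0 were called with 3B7N by limma. At an unadjusted p under 0.05, 1 was higher and 1 lower with 3B7N in cry1cry2, and 2 were higher and 0 lower in wild type. PAE9 was higher by 1.33 ± 0.17 in cry1cry2 on DMSO (limma, adjusted p = 8.8e-05), with an interaction of -1.29 (adjusted p = 0.00263), and PAE11 was higher by 1.05 in cry1cry2 on DMSO (adjusted p = 0.00168). In the 5 contrasts, 0 of 6 homogalacturonan synthesis genes were called, and 1 to 3 of them had an unadjusted limma p under 0.05 in each contrast.

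TBR (AT5G06700), whose loss removes the birefringence of trichome walls, was not called in any contrast. It had 1.95, 2.29 and 1.92 in cry1cry2 on 3B7N, against 2.21, 2.31 and 1.97 in cry1cry2 on DMSO. Wild type had 2.06, 2.55 and 2.21 on 3B7N, against 2.12, 1.77 and 1.89 on DMSO. A further probe of TBR gave -0.97 with 3B7N in cry1cry2, -0.85 between genotypes on 3B7N and -1.31 in the interaction. The probe shown gave -0.11, -0.22 and -0.46 there, and the absence of a call refers to that probe. Of 7 trichome markers, GL1, TRY and ETC1 were called lower with 3B7N in wild type. TRY, an inhibitor of trichome fate, fell by 3.64 ± 0.23 there (adjusted p = 1.51e-06) and was lower by 5.73 in cry1cry2 on DMSO (adjusted p = 1.5e-08).

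**Figure D3:**
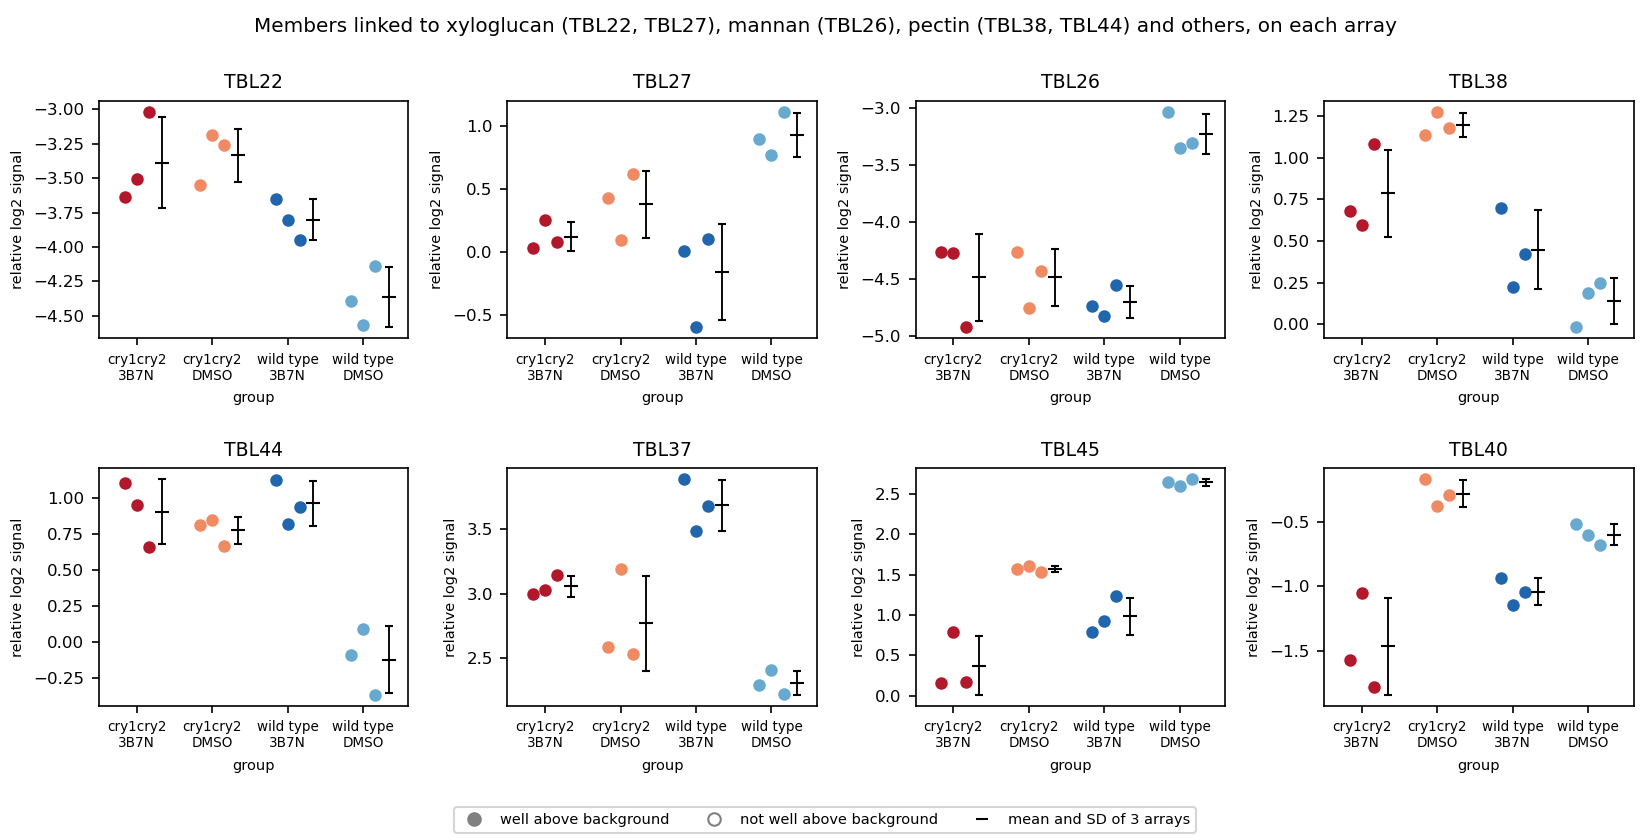
Relative log2 signal on each array (vertical axes) of 8 members in the 4 groups, with the mean and SD of 3 arrays beside the points. For TBL27, TBL26 and TBL45 the wild-type arrays on DMSO are above all other arrays, for TBL22, TBL44 and TBL37 they are below all others, and for TBL40 the cry1cry2 arrays on 3B7N lie below those on DMSO.

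The remaining members have no substrate assigned here, and 24 of them were tested. TBL4 (AT5G49340) had -5.65, -5.71 and -5.17 in cry1cry2 on 3B7N, against -10.41, -9.83 and -9.80 in cry1cry2 on DMSO. Its wild-type values were -6.03, -6.55 and -6.64 on 3B7N, against -8.87, -9.28 and -9.77 on DMSO. It was well above background on all 3 cry1cry2 arrays on 3B7N, on 2 of 3 wild-type arrays on 3B7N and on 0 of the 6 arrays on DMSO, so its level on DMSO has only an upper bound.

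With 3B7N, TBL4 was at least 5.95-fold higher in cry1cry2, against the lowest signal that was well above background on the DMSO arrays. In wild type the same ratio was 1.51, which is no strict bound because the mean on 3B7N includes replicate 2, not well above background. The measured log2 differences were 4.50 ± 0.26 in cry1cry2 (limma, adjusted p = 1.88e-06) and 2.90 ± 0.26 in wild type (adjusted p = 1.5e-05). Both p-values use the DMSO signals as measured, which were not well above background. In a setting chosen after seeing the data, each signal not well above background was raised to the lowest that was on its array, where it lay under it. TBL4 then differed by 2.57 in cry1cry2 (adjusted p = 0.00502), by 0.95 in wild type (adjusted p = 0.104, which ends the call) and by 1.62 in the interaction (adjusted p = 0.0689, not called). On 3B7N, with 5 of 6 arrays well above background, TBL4 was higher in cry1cry2 by 0.89 ± 0.26 (limma, adjusted p = 0.0302), under the size for a call. With dim signals raised to the floor, TBL4 differed there by 0.53 (adjusted p = 0.382). Its interaction of 1.60 ± 0.37 (adjusted p = 0.0084) contains the DMSO values and is no measure of how much more it changed. That interaction was not called with the slide as a block (1.01, adjusted p = 0.205) or with quantile scaling (0.80, adjusted p = 0.0677). With normexp no call of TBL4 held, and the differences were 0.47 in cry1cry2, 0.83 in wild type and -0.36 for the interaction.

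TBL15 (AT2G37720) was the member with the largest difference between genotypes on DMSO. It had -6.96, -6.84 and -7.04 in cry1cry2 on 3B7N, against -8.70, -9.90 and -9.09 in cry1cry2 on DMSO, where 1 of 3 arrays was well above background. In wild type it had -7.62, -6.17 and -6.30 on 3B7N, where again 1 of 3 was, against -4.40, -4.00 and -3.83 on DMSO, where all were. The groups on 3B7N overlapped, and those on DMSO stood on either side of them.

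With 3B7N, TBL15 was higher by 2.28 ± 0.37 in cry1cry2 (limma, adjusted p = 0.00403) and fell by 2.62 ± 0.37 in wild type (adjusted p = 0.000296). Between genotypes it differed by -0.25 on 3B7N (adjusted p = 0.653) and by -5.15 ± 0.37 on DMSO (adjusted p = 1.17e-06). The interaction was 4.90 ± 0.53 (adjusted p = 0.000107). All 4 calls held with the slide as a block. With normexp none held: the difference was -0.21 in cry1cry2, which turns its direction, -0.79 in wild type, -1.54 between genotypes on DMSO and 0.59 for the interaction. That setting adds an offset of 50 to each signal, which tends to shrink log2 differences of dim genes. A call lost with it does not show that a difference was absent. All 4 contrasts include a group with 1 of 3 arrays well above background, so their exact sizes are not measured. With dim signals raised to the floor of their array, TBL15 differed by 0.98 in cry1cry2 (adjusted p = 0.171, which ends the call), by -2.22 in wild type (adjusted p = 0.00126), by -3.85 between genotypes on DMSO (adjusted p = 1.65e-05) and by 3.20 in the interaction (adjusted p = 0.00177).

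**Figure D4:**
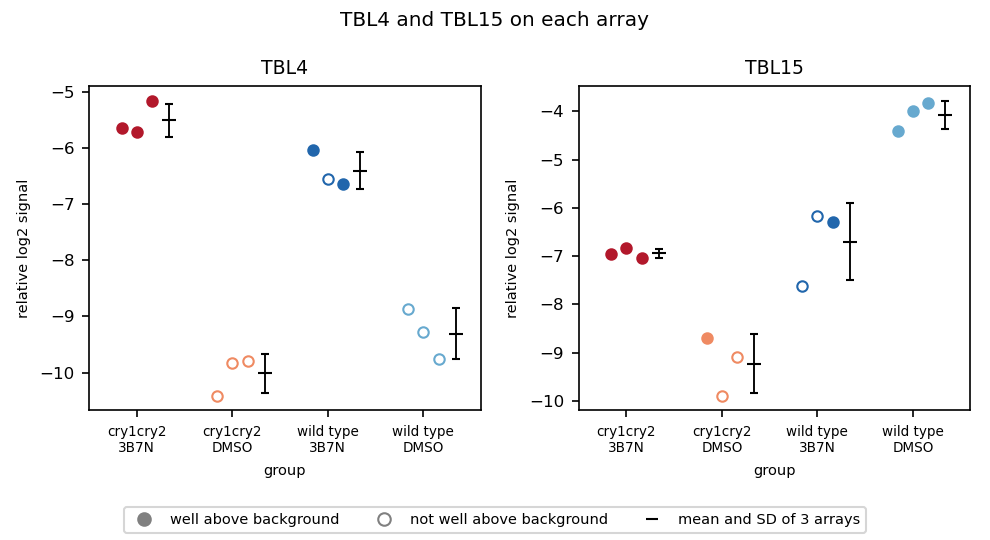
Relative log2 signal (vertical axes) of TBL4 and TBL15 on each of 3 arrays in 4 groups, with the mean and SD. Open points were not well above background. All 6 points of TBL4 on DMSO are open and lie below its 6 points on 3B7N, and TBL15 is highest in wild type on DMSO and lowest in cry1cry2 on DMSO.

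TBL45 (AT2G30010) was lower with 3B7N in both genotypes. It had 0.16, 0.79 and 0.17 in cry1cry2 on 3B7N, against 1.57, 1.61 and 1.53 in cry1cry2 on DMSO. The wild-type values were 0.78, 0.93 and 1.23 on 3B7N, against 2.64, 2.60 and 2.68 on DMSO. The DMSO arrays were above the 3B7N arrays in each genotype without overlap. TBL45 fell by 1.19 ± 0.18 in cry1cry2 (limma, adjusted p = 0.00225) and by 1.66 ± 0.18 in wild type (adjusted p = 4.42e-05). The interaction was 0.47, with a 95% interval of -0.08 to 1.02 (adjusted p = 0.184). In cry1cry2 the call was lost with the slide as a block (-1.16, adjusted p = 0.0656). On DMSO it was 2.1-fold lower in cry1cry2 (log2 difference -1.07, adjusted p = 0.000545), and with quantile scaling that difference was -0.95.

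TBL40 (AT2G31110) had -1.57, -1.05 and -1.78 in cry1cry2 on 3B7N, against -0.17, -0.38 and -0.29 in cry1cry2 on DMSO. Wild type had -0.94, -1.15 and -1.04 on 3B7N, against -0.52, -0.60 and -0.68 on DMSO. The 3B7N arrays were lower in each genotype. With 3B7N it fell by 1.19 ± 0.17 in cry1cry2 (limma, adjusted p = 0.00185), and in wild type the difference was -0.44 ± 0.17, which did not pass the test (adjusted p = 0.0586). With the slide as a block, its adjusted p in cry1cry2 was 0.0651 at a difference of -1.18. TBL33, TBL40 and TBL45, all called lower in cry1cry2, were each highest on replicate 2 within cry1cry2 on 3B7N, and without that array TBL40 and TBL45 both differed by -1.40.

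TBL37 (AT2G34070) was higher with 3B7N in wild type. It had 3.00, 3.02 and 3.15 in cry1cry2 on 3B7N, against 2.58, 3.19 and 2.53 in cry1cry2 on DMSO. The wild-type values were 3.89, 3.49 and 3.68 on 3B7N, against 2.29, 2.41 and 2.23 on DMSO. In wild type the 3B7N arrays stood above all other arrays, and in cry1cry2 the groups overlapped. The change was 0.29 ± 0.18 in cry1cry2 (limma, adjusted p = 0.384) and 1.38 ± 0.18 in wild type (adjusted p = 0.000166), with an interaction of -1.09 ± 0.25 (adjusted p = 0.008). The interaction was under the size for a call with quantile scaling (-0.95), array weights (-0.90) and normexp (-0.98), without wild type on 3B7N replicate 1 (-0.99) and without cry1cry2 on DMSO replicate 2 (-0.88), and it missed the test with the slide as a block (adjusted p = 0.0601).

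TBL41 (AT3G14850) was the only member called between genotypes on 3B7N with the brightest kept probe of each gene. It had -2.24, -2.09 and -2.44 in cry1cry2 on 3B7N, against -2.43, -3.31 and -2.35 in cry1cry2 on DMSO. Wild type had -3.18, -3.50 and -3.20 on 3B7N, against -2.63, -2.57 and -2.58 on DMSO. On 3B7N the genotypes did not overlap, and cry1cry2 was higher by 1.03 ± 0.22 (limma, adjusted p = 0.00892). The interaction was 1.14 ± 0.32 (adjusted p = 0.02). Both were lost with normexp (0.59 and 0.50), with scaling to the median (0.90 and 0.996) or by quantiles (0.90 and 0.996) and with the slide as a block (0.57 and 0.67). The difference on 3B7N was also under the size for a call without wild type on 3B7N replicate 2 (0.93) or cry1cry2 on 3B7N replicate 2 (0.95), and the interaction with array weights (0.96) or without cry1cry2 on DMSO replicate 2 (0.83).

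TBL1 (AT3G12060) had -5.84, -6.21 and -6.16 in cry1cry2 on 3B7N, against -7.18, -6.74 and -7.51 in cry1cry2 on DMSO, where 2 of 3 arrays were well above background. Wild type had -6.74, -5.95 and -6.31 on 3B7N, against -6.57, -7.04 and -6.69 on DMSO, with 2 and 1 of 3 arrays well above background. The mutant groups did not overlap and the wild-type groups did. With 3B7N it was higher by 1.07 ± 0.24 in cry1cry2 (limma, adjusted p = 0.0201), and by 0.44 in wild type (adjusted p = 0.167). The call in cry1cry2 ended with dim signals raised to the floor (1.06, adjusted p = 0.052), with quantile scaling (0.93, adjusted p = 0.0695), with normexp (-0.22, which turns the direction) and without cry1cry2 on DMSO replicate 1 or 3 or cry1cry2 on 3B7N replicate 1 (adjusted p = 0.0627, 0.0787 and 0.0992).

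TBL21 (AT5G15890) had -4.60, -4.06 and -4.19 in cry1cry2 on 3B7N and -4.44, -4.53 and -4.74 in cry1cry2 on DMSO. Wild-type arrays gave -3.39, -3.60 and -3.81 on 3B7N and -2.68, -3.39 and -3.18 on DMSO. The cry1cry2 arrays lay below the wild-type arrays under both treatments. It was lower in cry1cry2 by 2.8-fold on DMSO (log2 difference -1.49 ± 0.21, limma, adjusted p = 0.000155), and the difference on 3B7N was -0.68 (adjusted p = 0.0321), under the size for a call. Its neighbour on the chromosome, TBL19 (AT5G15900), differed by -0.41 between genotypes on DMSO (adjusted p = 0.106). The call of TBL21 was lost with the slide as a block (-1.09, adjusted p = 0.0729) and with normexp (-0.91, adjusted p = 0.1).

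Over the 5 contrasts, the 26 members that were never called had differences between -0.96 and 0.92. With 3B7N they ranged between -0.96 (TBL3) and 0.37 (TBL30) in cry1cry2 and between -0.48 (TBL11) and 0.48 (TBL8) in wild type, with 2 members at an adjusted p under 0.05 in each. Between genotypes they ranged between -0.62 (TBL25) and 0.92 (TBL30) on 3B7N and between -0.71 (TBL25) and 0.77 (TBL3) on DMSO, with 5 and 7 members at an adjusted p under 0.05. TBL2 was higher in cry1cry2 by 0.69 on 3B7N (adjusted p = 0.00606) and by 0.55 on DMSO (adjusted p = 0.00689), and TBL17 by 0.66 on DMSO (adjusted p = 0.00252), each without reaching the size for a call.

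The changes with 3B7N in the 2 genotypes rest on separate arrays. TBL45 was called lower in both and TBL4 higher in both, but TBL4 was not called in wild type with dim signals at the floor. TBL15 was called higher in cry1cry2 and lower in wild type, and its difference in cry1cry2 was not called at the floor and was -0.21 with normexp. In the contrast of 3B7N in wild type and that of genotypes on DMSO, which share the wild-type arrays on DMSO, TBL15 differed by -2.62 and -5.15, TBL26 by -1.47 and -1.25, TBL28 by -1.72 and -1.94, and TBL45 by -1.66 and -1.07. Since those arrays enter both contrasts, their signs are not independent.

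**Figure D5:**
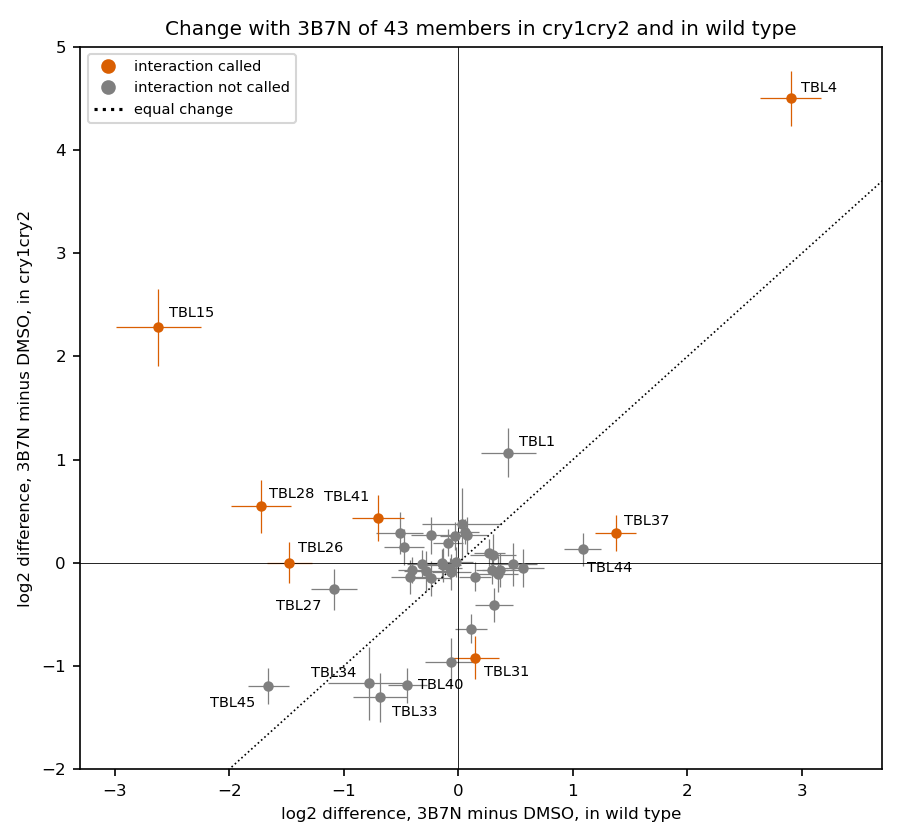
Log2 difference between 3B7N and DMSO of each of the 43 members in cry1cry2 (vertical axis) against that in wild type (horizontal axis), with standard errors as bars and a dotted line of equal change. The 7 members with a called interaction are orange. TBL15 lies in the upper left, TBL4 in the upper right above the line, and most grey points lie near 0 on both axes. The positions of TBL4 and TBL15 rest in part on arrays where they were not well above background.

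Slides of the array give a batch that is partly tied to the groups. The 3 slides held 4 arrays each: slide 1 held wild type on DMSO and 1 array of wild type on 3B7N, slide 2 held 2 arrays of wild type on 3B7N and 2 of cry1cry2 on DMSO, and slide 3 held 1 array of cry1cry2 on DMSO and cry1cry2 on 3B7N. Within slide 3, 3 arrays on 3B7N against 1 on DMSO gave cry1cry2 differences of -1.43 for TBL33, -1.18 for TBL40 and -1.16 for TBL45. Within slide 1, 1 array on 3B7N against 3 on DMSO gave wild-type differences of -1.51 for TBL26, -0.92 for TBL27, -1.79 for TBL28, 1.58 for TBL37, 1.25 for TBL44 and -1.86 for TBL45. These values share arrays with the fit and have no test of their own. They equal the differences with the slide as a block, so they are no separate check. Each rests on 1 array of 1 of the treatments. The genotypes on 1 treatment shared no slide, so those contrasts have no within-slide value. With the slide as a block, 19 of the 31 calls of members held and 12 were lost, with no change of direction. Over all genes, that setting called 218 higher and 98 lower with 3B7N in cry1cry2, in place of 431 and 334. In wild type it called 1248 and 1908, in place of 1207 and 1863. Between genotypes it called 14 and 32 on 3B7N (821 and 670 before) and 1424 and 2355 on DMSO (1562 and 2333 before). For the interaction it called 1938 and 914, in place of 2602 and 1211.

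The markers of other cell types moved between the same groups. Of 9 endodermis and suberin markers, 8 were called higher with 3B7N in wild type, and their summed signal was 54.0 to 68.8 times the 75th percentile there, against 15.4 to 17.0 on DMSO. In cry1cry2 the sum was 36.0 to 46.5 on 3B7N and 28.7 to 45.3 on DMSO, with GPAT5 and CYP86A1 called higher and CASP4 lower. Of 6 leaf photosynthesis markers, 5 were called lower in cry1cry2 on DMSO. Of 7 seed markers, OLEO2 and EM1 were called higher with 3B7N in wild type, and SESA1 lower in cry1cry2. Their summed signal varied within groups, with 1.61 to 3.11 in cry1cry2 on 3B7N and 1.40 to 4.57 on DMSO, and 2.96 to 14.4 in wild type on 3B7N and 0.517 to 7.22 on DMSO. The defining trichome gene GL1 was well above background on 0 cry1cry2 arrays on 3B7N, 1 on DMSO, 0 wild-type arrays on 3B7N and 3 on DMSO, and 0 of 5 pollen markers passed the filter. Their part in the values of the members was not tested.

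In the authors' deposited table of probes at 2-fold or more, where folds have no sign, TBL33 was listed at 2.45, TBL45 at 2.26 and TBL40 at 2.26 for 3B7N in cry1cry2. For 3B7N in wild type the authors' deposited table listed TBL28 at 3.38, TBL45 at 3.24, TBL26 at 2.85, TBL37 at 2.53, TBL27 at 2.18 and TBL44 at 2.07. TBL4 and TBL15 were not in it.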

How the data were processed

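Total RNA was labelled with Cy3 and measured on 12 one-colour Agilent arrays. Spot extraction by the authors used Agilent Feature Extraction 10.7.3.1, per the file headers. Its background-subtracted processed signal, a deposited intensity with no scaling between arrays, was the starting point. The authors deposited a list of probes with an unsigned fold (a ratio) and a corrected p-value for each 3B7N contrast, whose filter is not given in the sources used here. Steps before scanning are those of the labels' protocols.

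The log2 signal was set relative to the 75th percentile of each array. The filter kept probes flagged well above background throughout at least 1 group (3 of 3 arrays), and the brightest such probe represented each gene. Members had 63 probes, and 15 loci had several. Where they had several kept probes, the probes differed by over 0.5 only for TBR and TBL18. Probes were joined to loci by RefSeq accession in a gene table of another assembly release than the headers name, so no coordinates are given. Gene symbols are those of that table, and it did not annotate some pectin acetylesterases and AXY9, which were left out.

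One limma 3.58.1 fit (R 4.3.3) of 4 group means to 12 arrays gave all two-sided tests, adjusted by Benjamini-Hochberg over 20487 genes. It was tested on simulated data. Arrays have no counting depth, and their number limits the precision. "At least" folds set a group against the lowest signal well above background on each array. Alternatives were normexp background correction (offset 50, on the median signals, which the files used here give in place of means), median and quantile scaling, detection filters, probe averaging, the call rule, a fit of 2 groups, array weights, slide and replicate blocks, leaving out each array and, chosen after seeing the data, raising signals not well above background to the floor of their array. Replicate numbers were not treated as pairs in the main fit. Correlations of same-numbered deviations ran between -0.33 and 0.27. They were not set beside those of other arrays, so they cannot exclude pairing. All tested members could be named, called and substrate-linked members are given with values on each array, and of other lists up to 4 called genes. The members and lists were chosen with earlier results of these data known.

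The median of all genes moved by over 0.1 in 4 contrasts, with normexp or with median scaling. The share of higher genes among all genes called moved too. For 3B7N in cry1cry2 that share was 56.3%, against 42.2% with normexp and 69.0% with the slide block, at medians of -0.07 and 0.03 in place of 0.04. For 3B7N in wild type it was 39.3%, against 52.7% with median scaling, where the median of all genes was 0.08 in place of -0.06. For genotypes on 3B7N it was 55.1%, against 36.1% with median scaling, 33.3% with normexp and 30.4% with the slide block, at medians of -0.08, -0.11 and 0.03 in place of 0.05. For the interaction it was 68.2%, against 56.5% with median scaling and 57.8% with normexp, at medians of -0.07 and -0.14 in place of 0.07.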

Additional observations from a re-analysis of the deposited data

Results flagged for a closer look

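For 7 members the limma test of the interaction was called. The change in cry1cry2 minus that in wild type was 4.90 for TBL15, 2.27 for TBL28, 1.60 for TBL4, 1.47 for TBL26 and 1.14 for TBL41, and it was -1.09 for TBL37 and -1.07 for TBL31. TBL4 was well above background on 0 of 6 arrays on DMSO, so its interaction does not show that its changes differed. TBL15 was well above background on 1 of 3 in cry1cry2 on DMSO and on 1 of 3 in wild type on 3B7N, so the size of its interaction is not measured. With dim signals raised to the floor of their array, the interaction was 3.20 for TBL15 (adjusted p = 0.00177) and 1.62 for TBL4 (adjusted p = 0.0689).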

How the results depend on the processing

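The 31 calls of members were each recomputed under 22 to 24 settings, which gave 727 tests of a call in all. Of these, 654 kept the call, 70 lost it and 3 changed direction. TBL28 in its 3 contrasts, TBL37 in wild type and TBL45 in wild type kept the call in every setting. The changes of direction all came with normexp, for TBL1 (-0.22) and TBL15 (-0.21) with 3B7N in cry1cry2 and for TBL4 (-0.36) in the interaction. The normexp offset of 50 tends to shrink log2 differences of dim members, so their losses do not show that a difference was absent. The cause of the changes of direction was not tested. Signal over background limits TBL4, TBL15, TBL1, TBL8 and TBL31, which were not well above background on all 12 arrays.

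Counts of called members moved as follows. With normexp, 0 were higher with 3B7N in cry1cry2 (3 before), 3 lower in wild type (5), 1 higher and 2 lower between genotypes on DMSO (4 and 5), 0 higher on 3B7N (1), and 1 above and 0 below 0 in the interaction (5 and 2), and the members' median between genotypes on 3B7N was -0.11. Calls over all genes fell with normexp too. There were 135 higher with 3B7N in cry1cry2 (431 before) and 839 lower in wild type (1863). Between genotypes 1013 were higher and 1448 lower on DMSO (1562 and 2333), and 191 higher on 3B7N (821). In the interaction 1173 were above and 856 below 0 (2602 and 1211). With only probes above background on all 12 arrays, which leaves out TBL1, TBL4, TBL8, TBL15 and TBL31, these were 0 higher with 3B7N in cry1cry2 and 3 and 1 in the interaction. With dim signals raised to the floor, a setting chosen after seeing the data, 1 was higher with 3B7N in cry1cry2, and the calls of TBL1 and TBL15 in cry1cry2, of TBL4 in wild type and of its interaction were lost. By adjusted p alone, 6 were lower in cry1cry2, 9 lower in wild type, 10 and 10 between genotypes on DMSO, 5 and 5 on 3B7N, and 6 below 0 in the interaction. With the slide block, 0 were lower in cry1cry2, 0 higher between genotypes on 3B7N, and 3 and 0 in the interaction. In these contrasts the calls over all genes fell as well. Median scaling gave 0 between genotypes on 3B7N and 4 below 0 in the interaction, quantile scaling 0, and 3 and 1, averaging of probes 2 higher between genotypes on 3B7N, and array weights 1 below 0 in the interaction. The cause of these moves was not tested, apart from the settings that leave out members or the size threshold.

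Leaving out 1 array at a time gave 2 to 3 higher and 3 to 6 lower with 3B7N in cry1cry2, 2 to 3 and 4 to 5 in wild type, 0 to 3 and 0 between genotypes on 3B7N, 2 to 4 and 5 on DMSO, and 4 to 5 and 0 to 4 in the interaction. The members' medians ran between -0.05 and 0.02, -0.11 and -0.04, 0.12 and 0.22, 0.12 and 0.25, and 0.05 and 0.20 in those contrasts. The main fit did not treat replicate numbers as pairs. With the replicate block all 31 calls were kept, and the counts were 3 and 3, 3 and 5, 1 and 0, 4 and 5, and 5 and 2 in the same order.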
